A study of Mus musculus with 10 samples.

Results

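Csf3r, Fpr1, Fpr2, Trem1, Trem3, Clec4e, Il1r2, Itgam and G0s2 were followed in mouse skin. These 9 genes were taken by symbol from the 55487 genes of each library. The first 8 encode receptors found on neutrophils and other myeloid cells, and G0s2 encodes an intracellular protein that is abundant in neutrophils and in fat, so it is not itself a surface receptor. The skin came from 5 mice labelled Hamp1-KI ker, called KI here, and from 5 wild type (WT) mice, each giving 1 library. Hamp encodes the iron hormone hepcidin. The labels do not spell out "ker", and neither the promoter that drives the knock-in nor the age or strain of the mice is given in the sources used here. Titles carry the prefix EAS37 (KI 1, KI 2, WT 1, WT 2 and WT 3) or EAS42 (KI 3, KI 4, KI 5, WT 4 and WT 5), whose meaning is not given either.

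Neutrophils leave the bone marrow under granulocyte colony stimulating factor, whose receptor is Csf3r, and reach inflamed skin by following chemoattractants, among them the formylated peptides of bacteria and damaged mitochondria that Fpr1 and Fpr2 bind. They adhere to vessel walls and take up complement-coated particles through CD11b/CD18, whose alpha chain is Itgam. Trem1, Trem3 and Clec4e are activating receptors that signal through ITAM adaptor proteins, whereas Il1r2 binds interleukin 1 without signalling and so acts as a decoy. In skin Il1r2 is not limited to myeloid cells.

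Libraries held 18.96 to 23.11 M expected counts in KI and 19.49 to 26.43 M in WT. Hamp stood at 109 ± 34.3 CPM in KI and 2.46 ± 0.615 CPM in WT (SD, n = 5 each; CPM is expected counts scaled to library size), in the direction of the labels (log2 fold change 5.47 ± 0.26 SE, edgeR adjusted p = 3.78e-06). The keratinocyte list had a summed level of 18270 to 27220 TPM in KI and 13530 to 19090 TPM in WT (TPM, the authors' level per transcript length). Skeletal muscle markers summed to 2930 to 31590 TPM in KI and 31730 to 53700 TPM in WT, and adipocyte markers to 837 to 1652 TPM in KI and 2426 to 3467 TPM in WT. These muscle and fat levels moved with genotype, and their part in the results was not tested beyond fits that carried either level as a covariate. In bulk skin, more cells of a type and more RNA per cell cannot be told apart.

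KI skin held more Csf3r and more Clec4e than WT skin, and less Il1r2. Csf3r averaged 3.20 ± 1.43 CPM in KI and 0.598 ± 0.378 CPM in WT, and Clec4e averaged 1.39 ± 0.637 CPM in KI and 0.0332 ± 0.0456 CPM in WT (SD, n = 5 each). Il1r2 averaged 26.5 ± 8.84 CPM in KI and 43.2 ± 7.28 CPM in WT. Itgam and G0s2 did not pass the test, and Fpr1, Fpr2, Trem1 and Trem3 had too few counts for it. Of 17321 genes tested, 30.9% were called at an adjusted p under 0.05, 15.6% as higher and 15.3% as lower in KI. Of the 9 genes 5 passed the count filter, and 2 of these were called higher and 1 lower. Clec4e and Csf3r passed only through their KI libraries, since WT libraries held as few as 0 and 2 counts. A count over the genes that passed therefore carries no weight of its own.

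**Figure D1:**
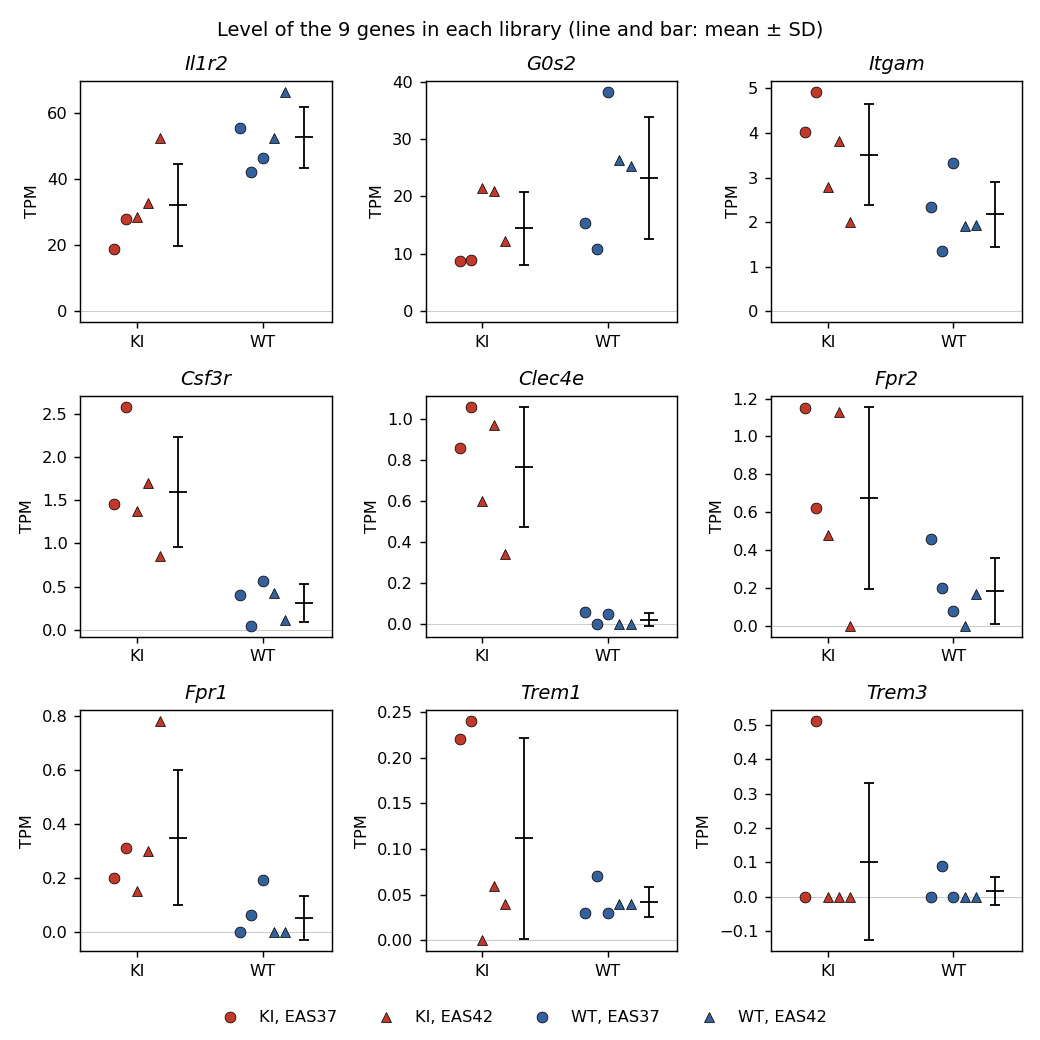
TPM of each of the 9 genes in the 5 KI and 5 WT libraries, with circles for EAS37, triangles for EAS42, and a line and bar for the mean and SD of each genotype. Each panel has its own axis. Csf3r and Clec4e are separate in the 2 genotypes, while in every other panel the ranges of the genotypes overlap.

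Upstream sequence is shown for Csf3r and Clec4e, which were higher in KI, for the integrin gene Itgam and for Il1r2, which was lower. Each line is the 250 bases before the transcription start that RefSeq gives on GRCm38.p6, read 5′ to 3′ on the strand of the gene. Csf3r is at chr4:126024409-126024658, plus strand; Clec4e is at chr6:123289872-123290121, minus strand. Itgam is at chr7:128062390-128062639, plus strand, and Il1r2 is at chr1:40085843-40086092, plus strand. Capitals mark GAGGAA or its reverse complement TTCCTC, the purine-rich core bound by the myeloid factor PU.1.
Csf3r: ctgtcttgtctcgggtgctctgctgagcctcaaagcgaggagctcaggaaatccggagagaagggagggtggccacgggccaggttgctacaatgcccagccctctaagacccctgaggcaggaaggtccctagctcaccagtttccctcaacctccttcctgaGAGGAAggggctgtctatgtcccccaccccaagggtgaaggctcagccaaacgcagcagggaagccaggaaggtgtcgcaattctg
Clec4e: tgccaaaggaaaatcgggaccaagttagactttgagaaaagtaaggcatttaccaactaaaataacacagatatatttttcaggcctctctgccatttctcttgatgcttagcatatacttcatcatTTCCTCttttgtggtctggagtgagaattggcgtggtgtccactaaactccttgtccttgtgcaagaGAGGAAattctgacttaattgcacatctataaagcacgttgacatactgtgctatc
Itgam: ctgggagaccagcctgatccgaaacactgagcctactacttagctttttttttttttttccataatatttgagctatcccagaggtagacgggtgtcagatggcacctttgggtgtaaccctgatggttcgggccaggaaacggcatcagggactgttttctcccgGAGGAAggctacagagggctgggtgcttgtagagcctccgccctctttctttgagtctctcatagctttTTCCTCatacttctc
Il1r2: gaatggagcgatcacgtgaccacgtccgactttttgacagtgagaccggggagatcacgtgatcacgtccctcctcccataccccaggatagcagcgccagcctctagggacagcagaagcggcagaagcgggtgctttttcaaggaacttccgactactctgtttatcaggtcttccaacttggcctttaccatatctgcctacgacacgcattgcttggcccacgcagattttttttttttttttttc

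The core stood once before Csf3r, at 2 places before Clec4e and Itgam, and at none before Il1r2. It was also found once before Fpr2 and Trem1, and at none before Fpr1 and G0s2, which makes 5 of the 8 genes with a RefSeq window. Of 32851 RefSeq windows of this length 23.3% held it, on either strand. The core was chosen after the sequences were seen. The longer PU.1 motif GAGGAAGT was in none of the 8 windows, against 2.44% of all windows, and so was the AP-1 motif TGANTCA, against 6.75%. The C/EBP motif TTGCNNAA, in 9.56% of all windows, was found before Clec4e alone, beginning 66 bases before the start and not overlapping the core that begins 56 bases before it. All motifs were sought on both strands, and a match describes letters only. The RefSeq start of Trem1 does not lie in a GENCODE transcript of the gene, so its window is less certain. The Csf3r window ends at 126024658, past the GENCODE start of the gene at 126024550. The core in the Csf3r window begins 86 bases before the RefSeq start, so it lies inside the GENCODE span and not upstream of it. The Il1r2 window lies inside the GENCODE span of the gene, which begins at 40074079, so it stands before an internal start. Sequence before the upstream end of Il1r2 was not searched.

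Csf3r (ENSMUSG00000028859; chromosome 4 of GRCm38, 126024550 to 126044440, plus strand) is the receptor through which granulocyte colony stimulating factor drives neutrophil production and survival. It stood at 3.785, 5.09, 2.14, 3.51 and 1.47 CPM in KI 1 to KI 5, against 0.8385, 0.106, 0.934, 0.834 and 0.275 CPM in WT 1 to WT 5. The genotypes did not overlap, KI 2 being the highest library and KI 5 the lowest in KI, and WT 2 the lowest of all. Ranges without overlap were seen for 20.3% of the genes tested. KI exceeded WT by 2.38 ± 0.50 on the log2 scale (SE; edgeR adjusted p = 0.0065). The exact two-sided permutation p for the mean CPM was 0.00794, which is as low as 10 libraries split evenly can give. Within EAS37 the log2 fold change was 2.8 (adjusted p = 0.0243), and within EAS42 it was 2.05 (adjusted p = 0.0546). The call was also lost with the skeletal muscle level as a covariate (1.35 ± 0.55 SE, edgeR adjusted p = 0.245, unadjusted p = 0.0335). It was lost as well with the adipocyte level (2.57 ± 0.91 SE, edgeR adjusted p = 0.228, unadjusted p = 0.0178). The adipocyte level did not overlap between the genotypes, so that fit can hardly separate it from genotype.

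Clec4e (ENSMUSG00000030142; chromosome 6, 123281789 to 123289870, minus strand) encodes Mincle, a C-type lectin that senses mycobacterial and fungal glycolipids and the nuclear protein SAP130 of dying cells. Its expected counts were 31, 41, 22, 46 and 10 in KI 1 to KI 5, against 2, 0, 2, 0 and 0 in WT 1 to WT 5. Every KI library exceeded every WT library, and in 3 of 5 WT libraries no count was found. The 150 counts of KI against 4 of WT gave a depth-corrected ratio of 40.4 (exact binomial 95% interval 15.5 to 150.2, counting error only). On the log2 scale KI was higher by 5.12 ± 0.69 (SE; edgeR adjusted p = 8.47e-04; exact two-sided permutation p = 0.00794). Clec4e was the one gene of the 9 called with the muscle level as a covariate (4.21, adjusted p = 0.0259), and likewise with the adipocyte level (5.55, adjusted p = 0.037). It was called in EAS37 alone (4.79, adjusted p = 0.0044) and in EAS42 alone (adjusted p = 0.0191), where both WT libraries had 0 counts and the fitted fold is not given.

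Il1r2 (ENSMUSG00000026073; chromosome 1, 40074079 to 40125231, plus strand), the decoy receptor of interleukin 1, went the other way. It stood at 17.8, 23.6, 22.5, 27.6 and 41.05 CPM in KI 1 to KI 5, against 43.95, 35.5, 37.0, 45.7 and 53.6 CPM in WT 1 to WT 5. Of the KI libraries 4 lay below every WT library, and KI 5 lay above WT 2 and WT 3, so the genotypes overlapped. Its log2 fold change came to -0.70 ± 0.21 (SE; edgeR adjusted p = 0.0267; exact two-sided permutation p = 0.0238). It was -0.88 within EAS37 (adjusted p = 0.0104) and -0.72 within EAS42 (adjusted p = 0.115). The call was lost with the muscle level (-0.46 ± 0.30 SE, adjusted p = 0.481) or adipocyte level (-0.59 ± 0.40 SE, adjusted p = 0.514) as a covariate. It was also lost without any 1 of KI 1, KI 2, KI 3, KI 4, WT 1, WT 4 or WT 5, at adjusted p between 0.0525 and 0.0613.

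Itgam (ENSMUSG00000030786; chromosome 7, 128062640 to 128118491, plus strand), the alpha chain of CD11b/CD18 on neutrophils, monocytes and macrophages, had higher mean values in KI. It stood at 15.75, 17.2, 9.37, 12.6 and 6.54 CPM in KI 1 to KI 5, against 7.33, 4.50, 10.7, 6.41 and 6.42 CPM in WT 1 to WT 5. KI 1, KI 2 and KI 4 lay above every WT library, while WT 3 lay above KI 3 and KI 5. Its fitted difference of 0.79 ± 0.29 on the log2 scale missed the threshold (SE; edgeR adjusted p = 0.0561; exact two-sided permutation p = 0.0556). It passed under DESeq2 (adjusted p = 0.0237), with the title prefix as a block (adjusted p = 0.021), and on leaving out KI 5 (adjusted p = 0.0168) or WT 3 (adjusted p = 0.0307). With the muscle level as a covariate its log2 fold change was 0.06 ± 0.31 (SE; adjusted p = 0.947). Itgam shares 3450 exon bases with the predicted gene Gm49368 on the same strand, which held 15.61 counts in KI and 6.71 in WT, so some of its reads may have been split.

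G0s2 (ENSMUSG00000009633; chromosome 1, 193272161 to 193273217, minus strand) encodes an inhibitor of adipose triglyceride lipase. It stood at 5.40, 4.90, 11.4, 10.9 and 6.385 CPM in KI 1 to KI 5, against 7.59, 5.66, 19.4, 13.8 and 13.25 CPM in WT 1 to WT 5. The genotypes overlapped broadly, and the lowest libraries of both were of prefix EAS37. The log2 fold change of -0.62 ± 0.36 (SE) did not pass (edgeR adjusted p = 0.211; exact two-sided permutation p = 0.183), and with the adipocyte level as a covariate it was 0.43 (adjusted p = 0.731), of the opposite sign. G0s2 lies within Lamb3, a keratinocyte laminin gene on the opposite strand with 15307 counts in KI and 18689 in WT; the exons share no bases, and the strand setting of the counting is not given in the sources used here.

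**Figure D2:**
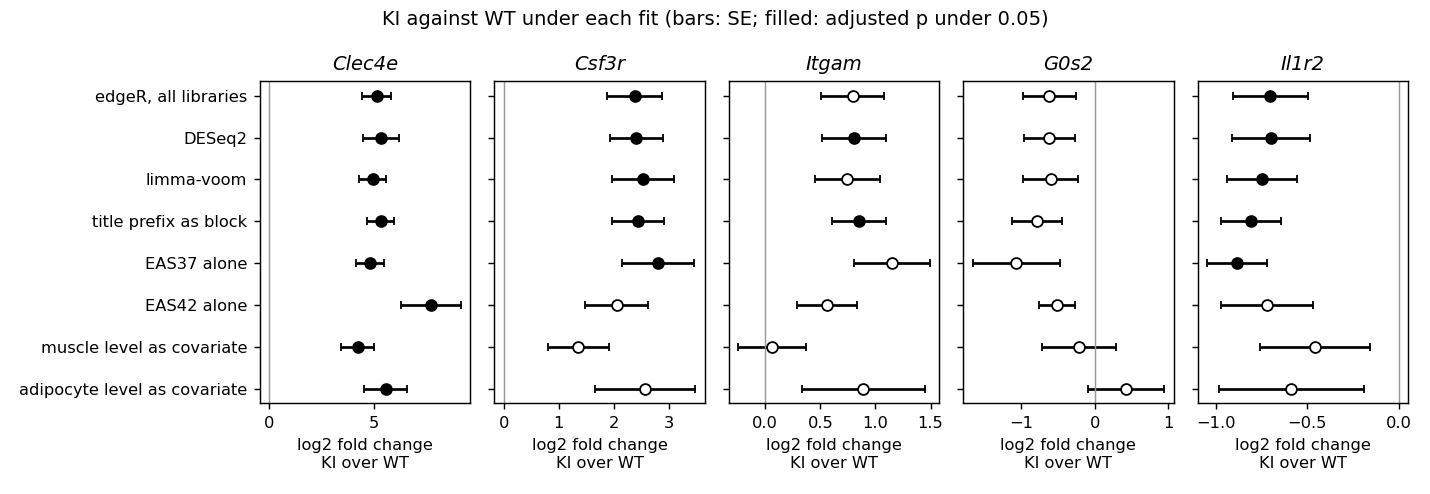
Log2 fold change of KI over WT for the 5 genes past the count filter under 8 fits, with bars for the SE and filled points where the adjusted p was under 0.05. Clec4e is filled in all 8 fits, Csf3r is open with EAS42 alone and with either covariate, and Itgam stands at 0.06 once muscle level is a covariate. The Clec4e point for EAS42 alone rests on WT libraries at 0 counts.

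The formyl peptide receptors lie next to each other on chromosome 17, with Fpr1 (ENSMUSG00000045551) from 17876471 to 17883940 on the minus strand and Fpr2 (ENSMUSG00000052270) from 17887824 to 17893952 on the plus strand. Fpr1, the high-affinity receptor, had 4, 6, 3, 6 and 13 counts in KI 1 to KI 5, against 0, 1, 4, 0 and 0 in WT 1 to WT 5. All KI libraries held it and 3 WT libraries did not, and WT 3 lay above KI 3 in CPM. The totals of 32 in KI and 5 in WT gave a ratio of 6.90 (95% interval 2.67 to 22.7, counting error only), with an exact two-sided permutation p of 0.0159 that is not adjusted over genes. In the edgeR fit with no count filter, which called 14.4% of 31097 genes, Fpr1 was not called (adjusted p = 0.0668), and DESeq2 gave adjusted p = 0.0214. Fpr2, which also binds serum amyloid A and annexin peptides, had 16, 8, 8, 16 and 0 counts in KI, against 7, 2, 1, 0 and 2 in WT. KI 5 held none and the other 4 KI libraries exceeded every WT library. The ratio of totals was 4.31 (95% interval 2.26 to 8.92), with an exact two-sided permutation p of 0.0794, and of 0.0159 without KI 5. Fpr2 shares 48 exon bases with Fpr3, and Fpr3, Fpr-rs3, Fpr-rs4, Fpr-rs6 and Fpr-rs7 had 0 counts in all 10 libraries, so the family was measured through Fpr1 and Fpr2 alone at this depth.

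Trem1 (ENSMUSG00000042265; chromosome 17, 48232768 to 48246924, plus strand), an amplifier of neutrophil and monocyte activation, had 11, 11, 0, 3 and 1 counts in KI, against 1, 2, 1, 2 and 2 in WT. The 2 high libraries were the KI libraries of prefix EAS37, and the KI libraries of EAS42 were at 0 to 0.127 CPM beside 0.0758 to 0.0917 CPM in WT. The exact two-sided permutation p over all libraries was 0.286. With EAS37 alone Trem1 passed the filter, though only through its KI libraries, where it was high, so its call there (log2 fold change 3.07, adjusted p = 0.0206) carries little weight. The difference between the effects in EAS42 and in EAS37 was not called (-3.48 on the log2 scale; edgeR with no filter, adjusted p = 0.49). Trem3 (ENSMUSG00000041754, 48247777 to 48258841) begins 852 bases after Trem1 and encodes an activating receptor of mouse macrophages and neutrophils. It had 7 counts in KI 2 and 1 in WT 2 and none elsewhere, so no difference was detectable (exact two-sided permutation p = 1). For the 5 genes past the filter the same interaction was not called either, at adjusted p between 0.494 and 0.798, where 0.866% of tested genes were.

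By level per transcript length, Il1r2 led both genotypes with 32.0 ± 12.4 TPM in KI and 52.5 ± 9.28 TPM in WT (SD, n = 5 each). G0s2 followed with 14.5 ± 6.33 TPM in KI and 23.2 ± 10.7 TPM in WT, and Itgam with 3.51 ± 1.13 TPM in KI and 2.17 ± 0.730 TPM in WT. Csf3r came next at 1.59 ± 0.634 TPM in KI and 0.314 ± 0.220 TPM in WT. Below it the order differed, since Clec4e ranked 5 in KI at 0.766 ± 0.294 TPM and 8 in WT at 0.022 ± 0.0303 TPM. In KI the ranges of neighbours in this order overlapped except between G0s2 and Itgam. In WT those from Csf3r downwards overlapped. Csf3r, Clec4e, Fpr1, Fpr2, Trem1 and Trem3, each with a higher mean in KI, together summed to 2.01 to 5.32 TPM in KI and 0.33 to 0.95 TPM in WT. All 9 genes summed to 35.3 to 68.5 TPM in KI and 54.8 to 93.9 TPM in WT, since Il1r2 and G0s2 made up most of that sum.

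Variation within a genotype was compared for Csf3r, Il1r2, G0s2 and Itgam, which had a mean of at least 1 CPM. Taken as deviations of log2 CPM from the genotype mean over the 10 libraries, Csf3r and Itgam had a Pearson r of 0.840, while Il1r2 had -0.541 with Itgam and -0.271 with Csf3r. KI 5 was the lowest KI library for Csf3r, Clec4e, Fpr2 and Itgam and the highest for Fpr1 and Il1r2. Of 15674 genes with a mean of at least 1 CPM, those most like Csf3r in this measure were Tra2b (0.945), Snx2 (0.943) and Plscr1 (0.934). Those most like Il1r2 were Rab27a (0.967), 2810030D12Rik (0.966) and Map3k8 (0.964), and Rab27a was lower in KI as well (log2 fold change -0.79, edgeR adjusted p = 0.0166). For Itgam they were Senp1, Clock and Ywhaq (0.958 to 0.964), and for G0s2 Enpep, Gbp3 and Cd83 (0.93 to 0.95). These are descriptions over the same 10 libraries, which share their depth and their tissue makeup. The genes named as most alike are the highest of 15674 searched, and the r that such a search gives by chance was not tested.

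Receptors of the same families were called higher more often than lower. Of 31 such genes 20 were tested, and edgeR called 12 higher and none lower. Over all genes tested 15.6% were called higher and 15.3% lower. The median log2 fold change of the 20 was 0.69, against -0.01 over all genes tested. With the muscle level as a covariate 2 of these receptors were called, with the adipocyte level 4 and with EAS42 alone 6. Clec5a, 1 of the 12, had a WT library at 0.3175 CPM and passed the filter only with its KI libraries. C-type lectins encoded on chromosome 6, as Clec4e is, were among those called higher. Clec4n (Dectin-2) was higher by 2.12 ± 0.33 on the log2 scale (SE; edgeR adjusted p = 0.00167), and Clec7a (Dectin-1), a receptor of fungal beta-glucan, 1.52 ± 0.28 (SE; adjusted p = 0.00365). Clec4d, which pairs with Mincle and lies 6523 bases from Clec4e, was below the filter with 142 counts in KI and 16 in WT, and its genotypes did not overlap (exact two-sided permutation p = 0.00794). Clec4b1, in the same cluster, was not called (-0.55, adjusted p = 0.253).

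In the TREM cluster, Trem2, a lipid-sensing receptor of macrophages, stood at 3.21 ± 0.601 CPM in KI and 0.743 ± 0.138 CPM in WT (SD, n = 5 each; log2 fold change 2.10 ± 0.21 SE, edgeR adjusted p = 2.17e-04), without overlap. Treml4 had 13 counts in KI and 0 in WT. Among the integrins, Itgax (CD11c) was 1.46 ± 0.26 higher (adjusted p = 0.00312) and Itgal (CD11a) 1.11 ± 0.19 higher on the log2 scale (SE; adjusted p = 0.00284). Their shared beta chain Itgb2 was at 0.60 (adjusted p = 0.0579) and was not called, as Itgam was not. Of the interleukin 1 receptors, the signalling receptor Il1r1 was at 0.05 ± 0.12 (SE; adjusted p = 0.789), and its co-receptor Il1rap was higher (0.67 ± 0.12 SE, adjusted p = 0.00358). The colony stimulating factor receptors Csf1r, Csf2ra, Csf2rb and Csf2rb2 were not called, at log2 fold changes between 0.0032 and 0.44.

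**Figure D3:**
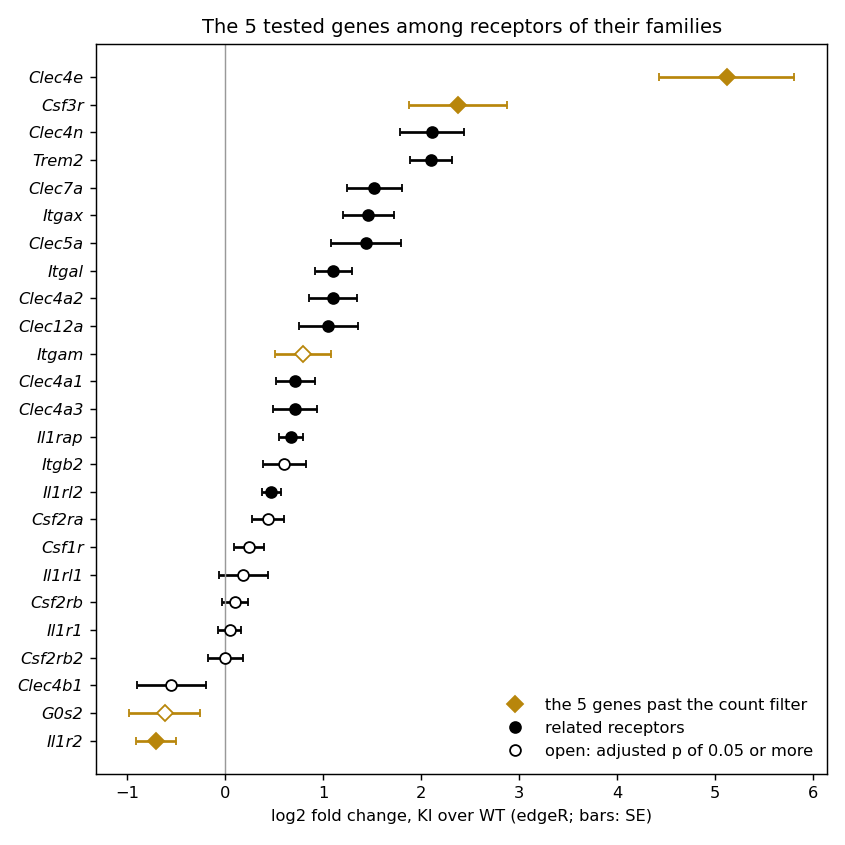
Log2 fold change of KI over WT, with the SE, for the 5 genes past the count filter (diamonds) and the 20 tested receptors of their families (circles); filled symbols have an adjusted p under 0.05. Clec4e and Csf3r lie at the upper end, Il1r2 at the lower end, and no related receptor is filled below 0.

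Of 15 ligands of these receptors 11 were tested, and 5 were called higher and none lower (median log2 fold change 0.37). Saa3 and Il1b passed the filter only through KI, so this count carries little weight. With the muscle level as a covariate 2 were called, and with EAS42 alone 3. With the adipocyte level 0 were called, where 4 had an unadjusted edgeR p under 0.05. Il1b and Il1a, which Il1r2 captures, were higher by 2.30 ± 0.44 and 1.0 ± 0.23 on the log2 scale (SE; edgeR adjusted p = 0.00435 and 0.00977). Icam1, a ligand of CD11b/CD18 on vessels and keratinocytes, stood at 32.9 ± 3.71 CPM in KI and 20.01 ± 1.92 CPM in WT (SD, n = 5 each). Saa3, a serum amyloid A of inflamed tissue, stood at 41.1 ± 40.7 CPM in KI and 0.0869 ± 0.0728 CPM in WT, from 10 WT counts. Csf3, the ligand of Csf3r, had 10 counts in KI and 0 in WT, with counts in 2 of 5 KI libraries (exact two-sided permutation p = 0.444); it is named for its receptor and after its values were seen.

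Of 24 adaptors and signalling enzymes, 12 were called higher and 1 lower (median log2 fold change 0.48). Over all genes tested 15.6% were called higher and 15.3% lower. Of the 24, 2 were called with the muscle level as a covariate, 7 with EAS42 alone and 0 with the adipocyte level. With the adipocyte level 12 had an unadjusted edgeR p under 0.05. Card9, which relays Mincle and Dectin signals, was higher by 0.95 ± 0.13 on the log2 scale (SE; edgeR adjusted p = 9.49e-04). Stat3, which acts after Csf3r, was higher by 0.59 ± 0.10 (SE; adjusted p = 0.00311). Around G0s2, 11 lipolysis genes gave 2 higher and 3 lower, and 1 was called with the muscle level as a covariate, 1 with EAS42 alone and 0 with the adipocyte level, where 3 had an unadjusted edgeR p under 0.05. Its target lipase Pnpla2 was lower (-0.76 ± 0.15) and the lipase activator Abhd5 higher (0.58 ± 0.09 SE; edgeR adjusted p = 0.00557 and 0.00223).

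Of 28 marker genes of neutrophils other than the 9 genes, 14 were tested, 9 were called higher, 1 lower and 4 not called (median log2 fold change 0.97). Some of these, such as Cxcr2 with 10 WT counts, passed the filter only through KI, so the share of those tested carries little weight. All 28 summed to 251 to 563 TPM in KI and 81.7 to 117.3 TPM in WT. Most of the KI sum came from S100a8, S100a9, Lcn2 and Mmp9, with means of 117.8, 82.7, 61.0 and 41.8 TPM. In WT these averaged 5.93, 3.54, 2.65 and 3.95 TPM. The 1 gene called lower averaged 10.1 TPM in KI and 32.6 TPM in WT. Whether the rest of the list separates the genotypes was not tested. S100a8 stood at 30.6 ± 18.7 CPM in KI and 1.395 ± 0.715 CPM in WT, and the chemokine receptor Cxcr2 at 3.60 ± 2.62 CPM in KI and 0.0848 ± 0.0835 CPM in WT (SD, n = 5 each). Of the whole list, with the 9 genes' share in it, 13 were called, against 6 with the muscle level as a covariate and 4 with the adipocyte level. S100a9, also a defining marker, stood at 23.1 ± 14.5 CPM in KI and 0.893 ± 0.561 CPM in WT (SD, n = 5 each). The defining markers Ly6g, Mpo, Elane and Retnlg were at or near 0, and so was Cxcr1. Ly6g and Cxcr1 had 0 counts in all libraries, Mpo 1 in KI and 0 in WT, Elane 3 in both genotypes and Retnlg 13 in KI and 5 in WT. S100a8, S100a9, Lcn2 and Mmp9 are made by keratinocytes as well as by neutrophils.

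Markers of all leukocytes were called higher in 6 of 6 cases (median 1.05), summing to 109.7 to 175.4 TPM in KI and 57.6 to 83.4 TPM in WT. With the muscle or the adipocyte level as a covariate 2 of these 6 were called in each fit. T and NK cell markers were higher in 5 and lower in 0 of 8 (median 1.0), where 15.6% of all genes tested were called higher. Some, such as Cd4 with a WT library at 0.417 CPM, passed the filter only with their KI libraries, so this count carries little weight. With EAS42 alone 2 T and NK cell markers were called, and with either covariate 0. An unadjusted edgeR p under 0.05 was seen for 5 with the muscle level and 2 with the adipocyte level. Monocyte, macrophage and dendritic markers were higher in 6 and lower in 1 of 24 (median 0.47), close to the 30.9% of all genes called, with Ccr2 at 1.72 ± 0.33 and the macrophage receptor Mertk at -1.21 ± 0.27 (log2 fold change, SE). With the muscle level 1 of the 24 was called, with the adipocyte level 2 and with EAS42 alone 3. Of 5 eosinophil and mast cell markers, edgeR, DESeq2 and limma-voom each called 0, and 0 had an unadjusted edgeR p under 0.05. With the adipocyte level as a covariate 1 was called and 4 had an unadjusted edgeR p under 0.05, and with the muscle level both counts were 0. Of 16 chemokines and cytokines that recruit neutrophils 10 were below the filter, and 5 of the 6 tested were higher (1 with either covariate, 3 with EAS42 alone). Cxcl1 and others passed the filter mainly through KI, so this count carries little weight. Cxcl1 stood at 3.72 ± 1.81 CPM in KI and 0.433 ± 0.449 CPM in WT (SD, n = 5 each). Keratinocyte markers were higher in 3 and lower in 0 of 10, where 15.6% of all genes tested were called higher and 15.3% lower. With either covariate 0 were called, and edgeR gave an unadjusted p under 0.05 for 1 with the muscle level and 0 with the adipocyte level. Of 8 red cell and platelet markers, edgeR, DESeq2 and limma-voom each called 0, and 1 had an unadjusted edgeR p under 0.05. Without KI 5 edgeR called 2. With the adipocyte level as a covariate 0 were called and 3 had an unadjusted edgeR p under 0.05. Adipocyte markers were lower in 8 of 12, endothelial and fibroblast markers in 8 of 12 and skeletal muscle markers in 3 of 15, a count between 0 and 13 with 1 library left out. With the muscle level as a covariate 1 adipocyte marker was called. Of the endothelial and fibroblast markers 0 were called with either covariate, where edgeR gave an unadjusted p under 0.05 for 6 with the muscle level and 4 with the adipocyte level. The part of each of these in the levels of the 9 genes was not tested.

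**Figure D4:**
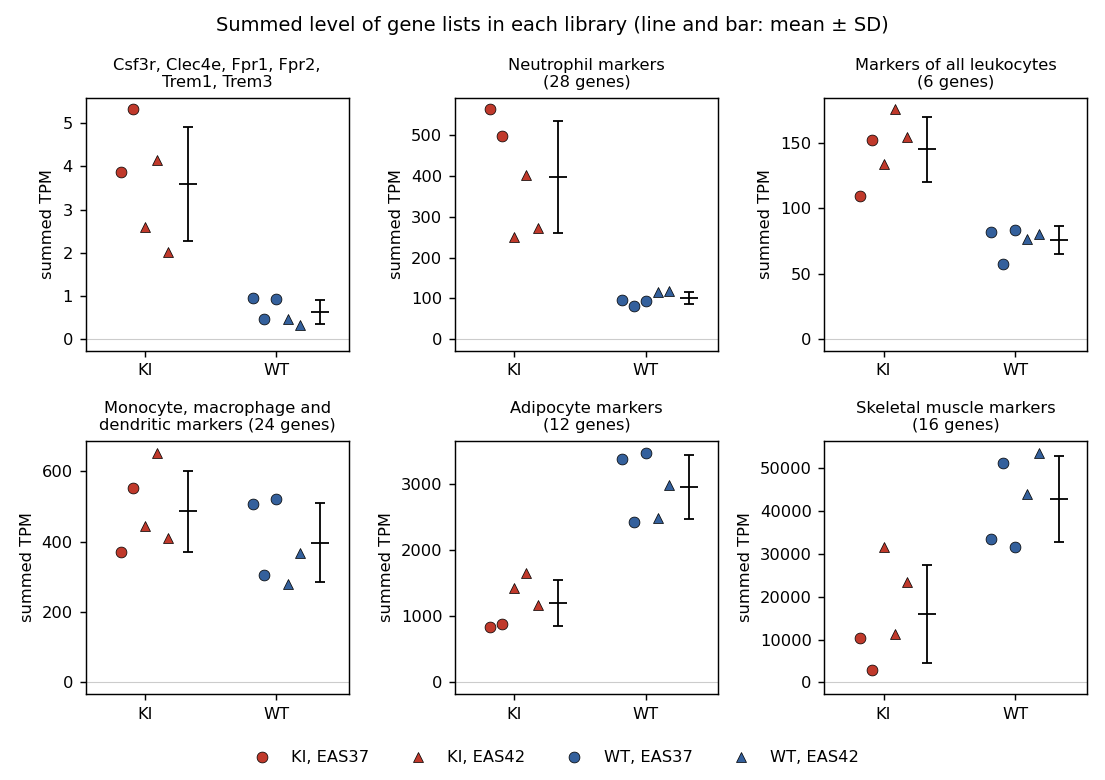
Summed TPM in the 5 KI and 5 WT libraries of Csf3r, Clec4e, Fpr1, Fpr2, Trem1 and Trem3, and of 5 marker lists without the 9 genes, with circles for EAS37, triangles for EAS42, and a line and bar for the mean and SD. The 6 genes were chosen after their values were seen, each having a higher mean in KI, and leave out Il1r2, Itgam and G0s2; all 9 genes summed to 35.3 to 68.5 TPM in KI and 54.8 to 93.9 TPM in WT. The 6 genes, the neutrophil markers and the leukocyte markers are higher in every KI library than in any WT library. Most of the neutrophil sum in KI comes from S100a8, S100a9, Lcn2 and Mmp9. The monocyte lists overlap, and adipocyte and muscle markers are lower in every KI library.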

How the data were processed

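RNA of mouse skin was extracted with trizol and sequenced as stranded mRNA libraries, per the labels' protocols. Tools listed, without roles, in the submitters' processing notes are DESeq2 1.14.1, featureCounts, Picard 2.8.1, STAR 2.5.2b and FastQC; the build listed is GRCm38. The authors' tables have the columns of RSEM: expected counts, TPM and FPKM per gene, per the file headers. The deposited expected counts were rounded for testing, the deposited TPM values give levels per length, and the deposited FPKM values entered only an alternative order of the 9 genes. Gene names and coordinates are those of GENCODE M21 (GRCm38), which matched 55141 of 55487 identifiers; promoters are RefSeq's, found for 8 of the 9 genes.

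KI and WT were compared by edgeR 4.0.16 (R 4.3.3; quasi-likelihood test, robust, TMM, filterByExpr with minimum count 10 and total 15, 17321 genes, 0.127% of counts removed), adjusted by Benjamini-Hochberg over all genes at 0.05. Genes below the filter were compared by counts and an exact permutation test over 252 assignments. Intervals on ratios cover counting error only. Replicate numbers follow accession order and pair nothing. The 9 genes and the 15 gene lists were chosen with earlier results of these data known. Named genes are the 9, their family receptors, up to 4 genes per list with the smallest p, the defining markers, and the 3 genes most like each of the 9 with a mean of at least 1 CPM. Alternatives were DESeq2 1.42.0 or its size factors, limma-voom (limma 3.58.1), no filter, minimum count 50, the title prefix as a block, muscle or adipocyte level as a covariate, each prefix alone and each library left out. The test was tried on simulated data. A result on 1 gene of the lists is not reported here.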

Additional observations from a re-analysis of the deposited data

Results flagged for a closer look

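Single libraries stood apart from the other 4 of their genotype by Dixon's test (critical value 0.71) in 7 of 78 gene and genotype groups. Chance flags about 1 in 20 where values are normally distributed. That rate does not hold for counts near 0, such as those of Trem3 and Treml4. Trem3 was at 0.333 CPM in KI 2 and at 0.0529 CPM in WT 2, and at 0 in the others of each genotype. Treml4 was at 0.254 CPM in KI 4, against 0.0507 to 0.101 CPM in the other KI libraries. Csf2ra was at 10.19 CPM in KI 1, against 13.7 to 14.9 CPM in the other KI libraries. Itgal was at 3.11 CPM in WT 3, against 1.82 to 1.85 CPM in the other WT libraries. Il1r1 was at 69.1 CPM and Lcn2 at 3.86 CPM in WT 2, against 48.75 to 52.4 CPM and 0.459 to 1.28 CPM in the other WT libraries.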

How the results depend on the processing

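The main fit called 5351 genes. In all, 344 genes were called with the muscle level as a covariate, 176 with the adipocyte level and 2488 with EAS42 alone. How many of these were among the 5351 was not counted. Of the 9 genes 3 were called; 1 was called with minimum count 50, with either covariate and with EAS42 alone, and 5 were called by DESeq2 (Fpr1 and Itgam beside the 3). Under minimum count 50 Csf3r and Clec4e were not tested. Clec4e kept its call in the 19 alternatives that tested it. G0s2 reversed with the adipocyte level (0.43). Of the 4 genes below the filter, 1 had an exact permutation p under 0.05, 0 were called by edgeR with no filter (2 at an unadjusted p under 0.05), and leaving out 1 library gave 1 to 2. The difference in mean CPM of Trem3 ranged from -0.0106 to 0.0727 with 1 library left out, negative without KI 2. Differences between title prefixes were called for 150 genes, and for 444 with no filter. Of the genes in the lists 91 were called, against 17 with the muscle level, 12 with the adipocyte level and 51 with EAS42 alone. Among the muscle markers 3 were called, and 0 to 13 with 1 library left out. The causes were not tested. Genes at a few counts per library limit any statement on Fpr1, Fpr2, Trem1 and Trem3.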
